A study of Mus musculus with 17 samples.

Results

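Recombinant CXCL12 was added to cultured macrophages of the mouse mammary gland, once alone and once together with an inhibitor of the kinase AKT. The 4 libraries of that culture were chosen from the 17 of the series by their labels: macrophages of wild type virgin mice, sorted with F4/80 and CD11b and kept in RPMI medium with serum, were left untreated, given CXCL12, given the AKT inhibitor GSK690693, or given both. The other 13 libraries are sorted cells of knockout, Cre control and wild type mice. Each culture group is 1 library, so that no single change below has a replicate check. The doses, the time in culture, any carrier solution and the number of mice are not given in the sources used here, and no label says whether the 4 cultures came from the same cells.

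CXCL12 is a chemokine that stromal and epithelial cells secrete. It binds CXCR4, a receptor coupled to inhibitory G proteins that activates PI3 kinase and AKT and steers cells along a gradient, and it also binds ACKR3, a scavenging receptor that removes it. AKT phosphorylates FOXO factors and feeds into mTOR signalling, so an AKT inhibitor blocks 1 arm of what CXCR4 turns on. Macrophages of the mammary gland line the ducts and the stroma and clear dying cells there.

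Depth was 21.1 M reads in the untreated, 29.04 M in the CXCL12, 14.3 M in the inhibitor and 16.04 M reads in the combined library. Levels are in CPM (counts per M reads of the library) and are not corrected for gene length. The library with both agents had 30.8% of the listed genes at 0, against 12.3% to 19.6% in the other 3. Summed macrophage markers stood at 7877, 7668, 6621 and 9865 CPM in untreated, CXCL12, inhibitor and combined cultures, and every one of the 10 markers was above 0 in at least 1 library. All 5 endothelial markers were present too, with sums of 1730, 1595, 2109 and 1667 CPM, as were fibroblast markers at 254 to 386 CPM and luminal epithelial markers at 291 to 369 CPM. B cell markers summed to 0.279 to 33.5 CPM and T and NK cell markers to 0.419 to 17.6 CPM, while dendritic cell markers summed to 163 to 250.5 CPM and mast cell markers to 122 to 164 CPM. Of 6 basal epithelial markers Krt5, Krt17 and Trp63 were not listed, and the other 3, of which Acta2 and Myh11 passed the filter, summed to 89.5 to 114 CPM. The part of these other cells in the results was not tested. In bulk RNA, fewer cells of a type and less RNA per cell cannot be told apart.

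The question was which genes CXCL12 moves in macrophages and whether they still move when AKT is inhibited. It was read from a pair of differences that share no library: CXCL12 against untreated, called the pair without inhibitor, and both agents against inhibitor, called the pair with inhibitor. Log2 ratios were formed after adding 0.0993 CPM, which is 2 reads at the mean depth, and 8415 of 18818 genes had at least 10 CPM in the higher library of each pair.

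At moderate to high level, 22 genes were higher and 30 lower with CXCL12 in both pairs by at least 1.5-fold, which is 1.04% and 1.41% of the genes of that level. The higher ones included Cd300a, an inhibitory receptor of myeloid cells, Traf1, an adaptor of TNF receptors, Vsir, which encodes the checkpoint protein VISTA, Tsc22d3, a glucocorticoid-induced leucine zipper protein, and the cytokine gene Il1a. Lower in both pairs were the transcription factor genes Elf4, Zbtb21 and Zbtb7a, the G protein subunit gene Gnaq, the growth factor gene Pdgfb and the gene of the cytoskeletal kinase Rock2. Their log2 ratios were from 0.63 (Il1a) to 1.17 (Traf1) in the higher group and from -1.17 (Zbtb21) to -0.67 (Rock2) in the lower one. None of the genes named here passed the test over all genes, which is given below.

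Cd300a had 129.7 CPM untreated and 240.4 with CXCL12, and 93.5 with the inhibitor and 208 with both. Both CXCL12 libraries were therefore above both libraries without it, with log2 ratios of 0.89 without and 1.15 with inhibitor. Traf1 stood at 87.3 and 197 CPM without the inhibitor and at 104 and 180 CPM with it (log2 1.17 and 0.78), again with no overlap. Tsc22d3 had 68.2 and 131 CPM in the pair without inhibitor, and 86.02 and 155 CPM in the pair with it. For Vsir the same 4 values were 56.9, 97.6, 82.0 and 169 CPM (log2 0.78 and 1.05).

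Il1a, which encodes the alarm cytokine interleukin 1 alpha, kept its direction at very different levels. It had 333 CPM untreated and 513 with CXCL12, but 81.3 with the inhibitor and 138 with both, so its log2 ratios of 0.63 and 0.76 were alike while both inhibitor libraries lay under both others. The interferon-inducible gene Ifi204 had the same arrangement, with 127 and 217 CPM in the pair without inhibitor and 42.5 and 99.5 CPM in the pair with it. Rapgef6, an exchange factor for Rap GTPases, stood at 146 and 245 CPM, then at 134 and 280.

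Elf4, an ETS family transcription factor gene, had 259 CPM untreated and 134 with CXCL12, and 275 with the inhibitor and 140.3 with both. The values of both pairs were nearly the same, and the log2 ratios were -0.95 and -0.97. Zbtb21, a zinc finger repressor gene, had 131 and 67.8 CPM without the inhibitor and 190.3 and 84.8 CPM with it (log2 -0.95 and -1.17). The platelet-derived growth factor gene Pdgfb had 283 and 165 CPM, then 391 and 236 CPM (log2 -0.77 and -0.73), so that the combined library lay below the untreated one. Rock2, a kinase that drives actomyosin contraction, had 529.6 and 334 CPM, then 337 and 194 CPM.

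**Figure D1:**
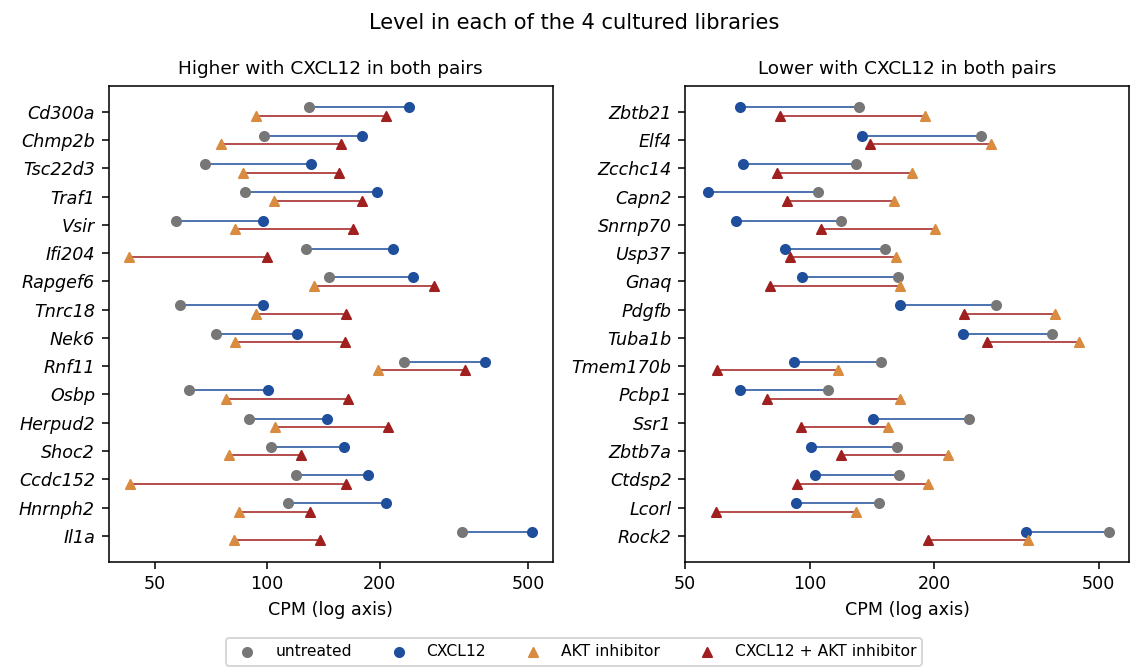
CPM on a log axis in each of the 4 cultured libraries for 16 genes that were at least 1.5-fold higher (left) and 16 that were at least 1.5-fold lower (right) with CXCL12 in both pairs; each line joins the library without CXCL12 to the one with it, circles without and triangles with the AKT inhibitor. Il1a and Ifi204 keep their direction although both inhibitor libraries lie lower, while the lines of Elf4 nearly coincide.

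These genes come from the 2121 with a mean of 100 CPM or more, a limit set after the data had been seen. Of them, 52 (2.45%) were at least 1.5-fold apart in the same direction in both pairs, 22 higher (1.04%) and 30 lower (1.41%), while 20 (0.943%) were that far apart in opposite directions. Single pairs passed 1.5-fold more often: 98 higher (4.62%) and 117 lower (5.52%) without, and 296 higher (14.0%) and 292 lower (13.8%) with inhibitor. Where each library was rescaled by its median ratio, all 22 higher genes remained among 33, but 15 of the 30 lower ones did. The higher share of alike genes then went from 42.3% to 68.8%, and genes in opposite directions numbered 26 against 48 alike. With it, the median ratio over all tested genes became 0.00 in place of -0.03 without inhibitor, and 0.10 in place of -0.08 with it. Cd300a, Traf1, Vsir, Tsc22d3, Il1a, Elf4, Zbtb21, Zbtb7a, Gnaq and Rock2 stayed past 1.5-fold there, whereas Pdgfb had log2 -0.75 and -0.56.

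Also in the higher group, Chmp2b, a subunit of the ESCRT-III membrane scission complex, had 98.2 and 179 CPM without the inhibitor and 75.0 and 157 with it. Osbp, an oxysterol carrier, had 61.8 and 100.4 CPM, then 77.3 and 165. Shoc2, a scaffold of RAS and RAF, Nek6, a mitotic kinase, Git2, a GTPase-activating protein for ARF, and the nuclear repressor gene Cic had log2 ratios from 0.59 (Git2) to 0.73 (Nek6) without and from 0.64 (Shoc2) to 1.29 (Git2) with inhibitor. Npm1, the nucleophosmin gene, at 0.66 and 0.61, has many near-identical pseudogene copies, and Ccdc152 overlaps Selenop on the opposite strand, so the reads of both are uncertain. Capza1-ps1 and Gm10222 were the other 2 members of the higher group.

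Polr2a, the largest subunit of RNA polymerase II, was among the lower genes, at 230 and 149.7 CPM without the inhibitor and 153 and 101 with it (log2 -0.62 and -0.60). Snrnp70, a protein of the U1 splicing particle, had 119 and 66.3 CPM, then 200.5 and 106 (log2 -0.84 and -0.91). The splicing kinase gene Clk4 stood at -0.80 and -0.62, the RNA-binding protein genes Pcbp1 at -0.70 and -1.07 and Rbm4b at -0.59 and -0.89, and Bcor, a corepressor, at -0.59 and -1.45. Ddit4, an inhibitor of mTOR complex 1, had 73.1 and 46.7 CPM without the inhibitor and 175 and 112 with it. Of these genes Snrnp70 and Pcbp1 kept 1.5-fold in both pairs under median-ratio scaling, and Polr2a, Clk4, Rbm4b, Bcor and Ddit4 did not.

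Tuba1b, an alpha tubulin with close paralogs, had 385 and 234 CPM, then 447 and 269. The metal ion transporter gene Slc11a2 had 299 and 195 CPM, then 330.1 and 217, and the ephrin receptor gene Epha2 188 and 124 CPM, then 180 and 118. Arhgap31, which inactivates RAC1 and CDC42, had 492 and 323 CPM, then 289.9 and 165. Capn2, a calcium-dependent protease, Ssr1, a protein of the endoplasmic reticulum translocon, and Psmd1, a proteasome subunit, ranged from -0.88 (Capn2) to -0.61 (Psmd1) without and from -0.86 (Capn2) to -0.69 (Ssr1) with inhibitor. Under median-ratio scaling Capn2 kept 1.5-fold in both pairs, and Tuba1b, Slc11a2, Epha2, Arhgap31, Ssr1 and Psmd1 did not.

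Promoters of 3 of these genes, Il1a from the higher and Zbtb21 and Elf4 from the lower group, are shown because each kept its direction in both pairs and their RefSeq promoters, on build GRCm38.p6 and the minus strand of each chromosome, hold motifs of factors that respond to cell surface signals. A window runs from 250 bases before to 50 after a start of the gene. RefSeq gives Elf4 2 starts: the window shown is the one with motifs, and that of the other start holds none of those searched. A gene with 2 starts, such as Elf4, Cic or Lcorl, was counted if either window held the motif. Capitals mark TGANTCA, the AP-1 site, in Il1a (chr2:129309923-129310222), TGACGTCA, the cAMP response element, and CACGTG, the E-box, in Zbtb21 (chr16:97962573-97962872), and the AP-1 site and the E-box in Elf4 (chrX:48463083-48463382).
Il1a promoter: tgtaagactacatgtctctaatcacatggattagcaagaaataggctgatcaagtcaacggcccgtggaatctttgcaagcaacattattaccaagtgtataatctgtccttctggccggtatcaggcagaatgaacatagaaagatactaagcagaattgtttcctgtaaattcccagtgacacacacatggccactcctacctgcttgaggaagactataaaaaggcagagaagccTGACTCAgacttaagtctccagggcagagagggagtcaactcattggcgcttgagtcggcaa
Zbtb21 promoter: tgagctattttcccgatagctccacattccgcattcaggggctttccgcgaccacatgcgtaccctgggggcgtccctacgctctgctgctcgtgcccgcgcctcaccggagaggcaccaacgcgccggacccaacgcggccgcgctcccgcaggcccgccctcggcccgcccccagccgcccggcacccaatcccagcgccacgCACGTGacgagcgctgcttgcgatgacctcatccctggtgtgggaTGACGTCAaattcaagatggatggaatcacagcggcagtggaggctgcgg
Elf4 promoter: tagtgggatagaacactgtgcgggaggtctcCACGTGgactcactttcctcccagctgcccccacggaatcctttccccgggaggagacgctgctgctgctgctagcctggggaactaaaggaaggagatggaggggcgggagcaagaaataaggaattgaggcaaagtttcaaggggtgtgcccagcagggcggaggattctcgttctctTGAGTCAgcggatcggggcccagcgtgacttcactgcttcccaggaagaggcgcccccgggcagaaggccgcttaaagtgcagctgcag

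Of the 20 higher and 28 lower genes that carry a standard symbol, 17 and 24 had a RefSeq promoter. Both strands were searched, and the motifs do not contain each other. The AP-1 site was in the promoter of 1 higher gene, Il1a, and of 2 lower genes, Elf4 and Capn2, against 8.97% of 27025 genes with a promoter and 8.03% of the tested genes of mean 100 CPM or more. Of those 2121 tested genes 1644 had a promoter, so that the second share covers them in part. The cAMP response element was in none of the higher and in 3 of the lower genes (Zbtb21, Clk4 and Epha2), against 2.03% of all and 4.50% of the tested genes of that level. The E-box was in 2 higher genes (Hnrnph2 and Cic) and 5 lower ones (Elf4, Zbtb21, Pcbp1, Ssr1 and Lcorl), against 8.09% of all and 13.7% of the tested genes of that level. The FOXO site GTAAACA was in Tnrc18 alone, against 4.05% and 3.47%. A match is a run of letters in this window and not evidence of binding.

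In the annotation of GRCm38, Cd300a (ENSMUSG00000034652) lies on chromosome 11 from 114890041 to 114904654, Traf1 (ENSMUSG00000026875) on chromosome 2 from 34941750 to 34961772, and Il1a (ENSMUSG00000027399) on the same chromosome from 129299610 to 129309972. Zbtb21 (ENSMUSG00000046962) lies on chromosome 16 from 97943357 to 97962622, Elf4 (ENSMUSG00000031103) on chromosome X from 48411046 to 48463132, and Gnaq (ENSMUSG00000024639) on chromosome 19 from 16132831 to 16387463. The annotation lists each of them as protein-coding.

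The receptors and signal proteins of CXCL12 itself differed in how far their values went together. Cxcr4 had 183.5 CPM untreated and 139 with CXCL12, but 175 with the inhibitor and 379 with both. The combined library therefore stood above the other 3, with log2 ratios of -0.40 without and 1.12 with inhibitor. Ackr3, the scavenging receptor, had 73.6 and 40.6 CPM, then 29.9 and 17.6 (log2 -0.86 and -0.76), and each CXCL12 library was lower than its partner. Endogenous Cxcl12 had 277 and 218 CPM, then 282 and 443 (log2 -0.34 and 0.65), so like Cxcr4 it was highest with both agents.

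Gnaq, the alpha subunit that links receptors to phospholipase C, had 164 CPM untreated, 95.8 with CXCL12, 166 with the inhibitor and 80.0 with both. Its log2 ratios were -0.77 and -1.05, and both CXCL12 libraries lay below both others. Gng2, a gamma subunit, was the 1 gene of the list at least 2-fold apart in the same direction in both pairs, with 52.7 and 22.9 CPM, then 65.8 and 31.8. Over all genes, 4.1% were lower by that rule. Rgs1, which shortens G protein signals, had 434 and 605 CPM, then 410.05 and 625 (log2 0.48 and 0.61). It was higher with CXCL12 in both pairs, under 1.5-fold without the inhibitor.

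Of the 34 symbols of this list, 32 were listed and 29 passed the filter; Adrbk1 and Adrbk2 are older names of Grk2 and Grk3, which were counted. Log2 ratios above 0 were found in 9 of 29 without and 12 of 29 with inhibitor, against 48.3% and 47.2% of all genes tested. The list median was -0.17 and -0.21, beside -0.03 and -0.08 over all genes. With median-ratio scaling it was -0.13 and -0.04, beside 0.00 and 0.10 over all genes. The inhibitory alpha subunit genes Gnai1, Gnai2 and Gnai3 were below 0 in both pairs, at -0.46, -0.46 and -0.09 without and -1.29, -0.40 and -0.21 with inhibitor. Under median-ratio scaling they kept that sign, with Gnai3 at -0.06 and -0.05. The arrestin gene Arrb1 stood at -0.72 and -0.19 and the receptor kinase gene Grk2 at -0.48 and 0.60.

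Several members differed most in the combined library. Prex1, a RAC exchange factor driven by beta-gamma subunits, had 65.9 and 105 CPM, then 107 and 8.29. Dpp4, the protease that cleaves CXCL12, had 16.1 and 20.9 CPM, then 14.7 and 0.499. Grk3 had 51.8 and 75.8 CPM, then 77.6 and 23.6. Gng5, another gamma subunit, had 84.0 and 33.9 CPM, then 51.0 and 54.9, a difference seen without and not with inhibitor. Prex1, Grk3, the gamma subunit gene Gng12 (0.92 and -0.91) and Rgs10 (1.23 and -0.73) had ratios over 0.5 in size and of opposite sign in the pairs. All but Grk3 were at least 1.5-fold apart in each pair. Of all genes, 14.0% were that far apart in opposite directions. Pik3cg, Rgs14 and Rgs18 did not pass the filter, and Rgs18 was at 30.4 CPM with both agents and at or under 0.0344 CPM in the other libraries.

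Other chemokine genes were mostly higher with CXCL12 in the pair without inhibitor. All 7 CXC chemokine genes that passed the filter were above 0 there, with a median log2 ratio of 0.73. With inhibitor 3 of 7 were, with a median of -0.10, and median-ratio scaling made these 4 of 7 and 0.06. Of all genes tested, 48.3% were above 0 without and 47.2% with inhibitor. With median-ratio scaling 53.9% of all genes were above 0 with inhibitor, at a median of 0.10. Cxcl2, a neutrophil attractant, had 786 CPM untreated and 1480 with CXCL12, then 751 with the inhibitor and 958 with both (log2 0.91 and 0.35). Cxcl3 had 187 and 310 CPM, then 83.6 and 77.8 (log2 0.73 and -0.10), a difference without the inhibitor alone. Cxcl5 was the only member 2-fold higher in both pairs, where 2.45% of all genes were, at 3.64 and 37.6 CPM, then 7.61 and 21.5.

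Of 9 CC chemokine genes that passed, 8 were above 0 without and 7 with inhibitor, against 48.3% and 47.2% of all genes. Their medians were 0.24 and 0.28, and none reached 2-fold in either pair. Of all genes tested, 21.1% did without and 40.6% with inhibitor. A mean of 100 CPM or more was found for 6 of the 9. At that level 0.754% of genes reached 2-fold without and 8.204% with inhibitor, so the absence of such members says little. Ccl22, which attracts regulatory T cells, had 95.6 and 131 CPM, then 59.2 and 80.6. The monocyte attractant Ccl2 had 402 and 551 CPM, then 307 and 373, and Ccl9 had 952 and 1124 CPM, then 494 and 682. The exceptions with inhibitor were Ccl3 (0.52 without, -0.29 with) and Ccl11 (0.37 without, -0.78 with). Cxcl1 (0.37 and -0.42), Cxcl16 (0.48 and -0.27) and Cxcl9 (0.18 and -0.45) had opposite signs too.

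**Figure D2:**
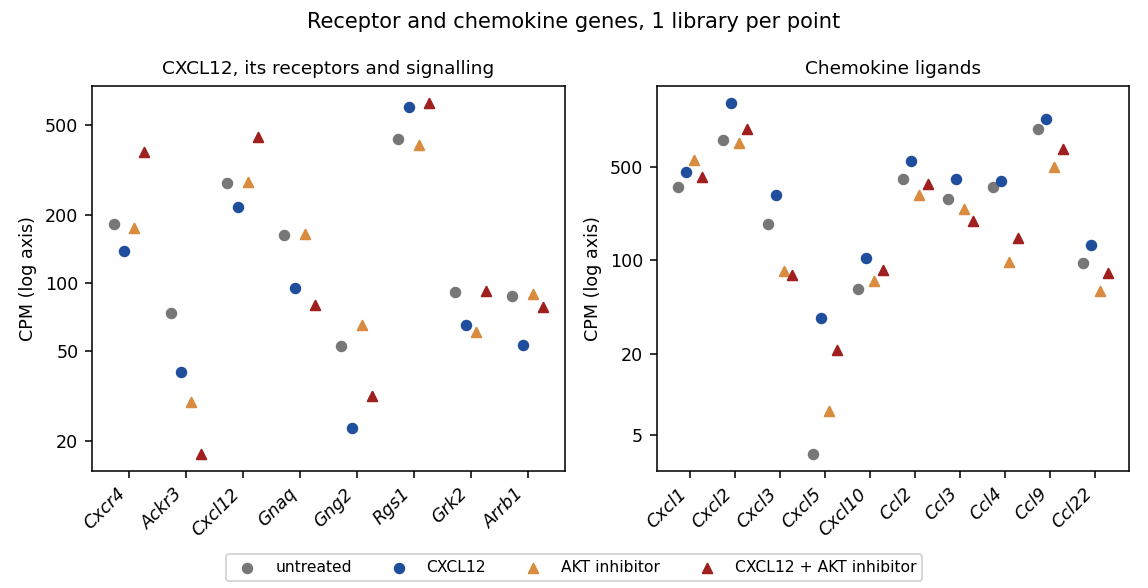
CPM on a log axis of CXCL12, its receptors and signalling genes (left) and of chemokine ligands (right), with 1 point per library. Cxcr4 and Cxcl12 are highest in the library with both agents, Gnaq and Gng2 are lower in both CXCL12 libraries, and Cxcl2 and Cxcl5 are highest with CXCL12 alone.

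Inflammatory signalling genes were split. Tnf stood at 448 and 537 CPM, then 187 and 283 (log2 0.26 and 0.59), and Ptgs2, the inducible cyclooxygenase, at 732 and 999 CPM, then 144 and 165 (log2 0.45 and 0.20), both higher with CXCL12 in each pair. Il1rn, the interleukin 1 receptor antagonist, had 5646 and 5089.5 CPM, then 2023 and 3892 (log2 -0.15 and 0.94). Over the 14 members that passed, none was 2-fold in the same direction in both pairs, where 6.55% of all genes were. The medians were 0.07 and 0.36, and 8 members were above 0 without and 10 with inhibitor, against 48.3% and 47.2% of all genes. Ptges, Tnfsf9, Lif and Csf3 had the largest mean size of the 2 ratios among members past the filter, and of these Csf3, a granulocyte growth factor, was below 0 in both pairs (-0.56 and -1.35) whereas Lif had opposite signs (-0.73 and 1.60).

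Members of the NF-kB list likewise went apart. Traf1 is described above, and the inhibitor genes Nfkbie (0.77 and 0.73) and Nfkbib (1.19 and 0.84) were also above 0 in both pairs. Nfkb2, the p100 precursor, had 102 and 155 CPM, then 159 and 56.2, and Sod2, the mitochondrial superoxide dismutase induced by NF-kB, 215 and 324 CPM, then 288 and 157, so that both were higher without and lower with inhibitor. Icam1, an adhesion receptor, had 1113 and 709.9 CPM, then 1492 and 1323 (log2 -0.65 and -0.17). The medians of the 18 members were 0.10 and -0.08, beside -0.03 and -0.08 over all genes. With median-ratio scaling the second became 0.09, beside 0.10 over all genes.

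Immediate early genes, which many receptors switch on within minutes, were above 0 for 20 of 29 members in each pair, against 48.3% and 47.2% of all genes. With median-ratio scaling these were 20 and 23, where 50.1% and 53.9% of all genes were above 0. None was 2-fold in the same direction in both pairs, where 6.55% of all genes were, and the medians were 0.18 and 0.15. Jund, an AP-1 subunit, had the largest ratio among members above 0 in both pairs by the smaller of the 2, at 49.3 and 76.7 CPM, then 80.1 and 173, while Fos stood at 0.22 and -0.20 and Atf3 at 0.25 and 0.19. Dusp2, a MAP kinase phosphatase, had 67.2 and 105 CPM, then 65.2 and 28.1.

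Of 31 AKT and FOXO genes that passed, Bcl6, a repressor gene that FOXO factors induce, was the 1 gene 2-fold higher in both pairs, with 7.33 and 21.7 CPM, then 19.6 and 40.3. Of all genes 2.45% were. The list medians were 0.09 and 0.24. Klf2, a FOXO target, had 32.0 and 48.7 CPM, then 23.0 and 33.7 (log2 0.61 and 0.55). Pdk4, which limits pyruvate use and is induced by FOXO, had 104 and 66.0 CPM, then 23.5 and 87.3, with opposite signs. Irs2, the insulin receptor substrate, had 279 and 254 CPM, then 298 and 548, and was highest with both agents.

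Antigen presentation and monocyte lists held a few low-level genes 2-fold apart in the same direction in both pairs. Ciita, the master regulator of class II genes, had 53.5 and 18.3 CPM, then 53.1 and 11.3 (log2 -1.54 and -2.22), while H2-Ob, of the class II accessory protein HLA-DO, had 5.96 and 16.9 CPM, then 7.68 and 23.9. Over all genes 2.45% were higher and 4.1% lower by that rule, and these were 1 and 1 of 14 class II and costimulation genes. Of the 14, 10 were above 0 in each pair, against 48.3% of all genes without and 47.2% with inhibitor, and the medians were 0.13 and 0.40. H2-Aa stood at 0.09 and 0.33 and H2-Ab1 at 0.12 and 0.37, while H2-DMb2 was below 0 in both (-0.51 and -1.22) and H2-DMb1 went from 1.92 to -5.32. Among 12 classical monocyte genes Ly6c2 (8.70 and 17.5 CPM, then 16.8 and 53.6) and Ifitm6 (5.72 and 12.9 CPM, then 5.86 and 42.2) were 2-fold higher in both, and Vcan, a matrix proteoglycan, was 2-fold lower (42.5 and 18.3 CPM, then 30.1 and 5.99). These are 2 and 1 of 12, where 2.45% and 4.1% of all genes were so, and the list medians were 0.53 and 0.43.

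Survival genes and sensors gave further alike members. Bcl2a1d, an anti-apoptotic BCL2 relative with near-identical copies, had 34.9 and 77.0 CPM, then 36.5 and 85.3. Fas, the death receptor, had 13.2 and 2.79 CPM, then 11.5 and was listed at 0. Ticam1, the adaptor of TLR3, had 21.5 and 52.2 CPM, then 33.0 and 74.1, and Socs1, a brake on cytokine receptors, 21.7 and 45.3 CPM, then 6.35 and 28.8. The elastase gene Mmp12 had 65.9 and 148 CPM, then 33.4 and 73.5. Over the whole of their lists, 3 of 19 survival genes, 1 of 13 Toll-like receptor genes, 1 of 15 alternative activation genes and 1 of 17 protease genes were alike in either direction, against 6.55% of all genes.

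The medians of some lists differed between the pairs, beside -0.03 without and -0.08 with inhibitor over all genes. All 13 mitochondrially encoded genes were above 0 without and 2 with inhibitor, against 48.3% and 47.2% of all genes, with medians of 0.33 and -0.15. With median-ratio scaling 7 were above 0 with inhibitor, where 53.9% of all genes were. That median became 0.01, beside 0.10 over all genes. The mitochondrial ribosomal RNA mt-Rnr1 had 146 and 581 CPM, then 228 and 238. The nuclear ribosomal RNA Rn18s had 8112 and 13783 CPM, then 12561 and 9042, so both ribosomal RNAs were higher with CXCL12 in the pair without inhibitor. Their part in the other differences was not tested. Resident stromal macrophage genes had medians of -0.16 and 0.55. Of 14 past the filter, 6 were above 0 without and 9 with inhibitor, against 48.3% and 47.2% of all genes. With inhibitor 3 were at least 2-fold higher and 3 at least 2-fold lower, where 15.7% and 24.9% of all genes were. Folr2, the folate receptor of such cells, had 13.5 and 2.46 CPM, then 19.0 and 40.7. Cell cycle genes had medians of -0.09 and 0.34, although Top2a, Mcm7 and Ccnd3 were 2-fold lower in both pairs, with at most 0.312 CPM each in the combined library. These are 3 of 16, where 4.1% of all genes were so. Growth factor genes had medians of -0.22 and -0.05. With median-ratio scaling the second became 0.19, beside 0.10 over all genes. Areg, an EGF receptor ligand, had 14.5 and 54.9 CPM, then 19.3 and 0.125. Among 7 listed Wnt ligands, Wnt4 alone passed the filter, at 13.1 and 8.06 CPM, then 15.3 and listed at 0.

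**Figure D3:**
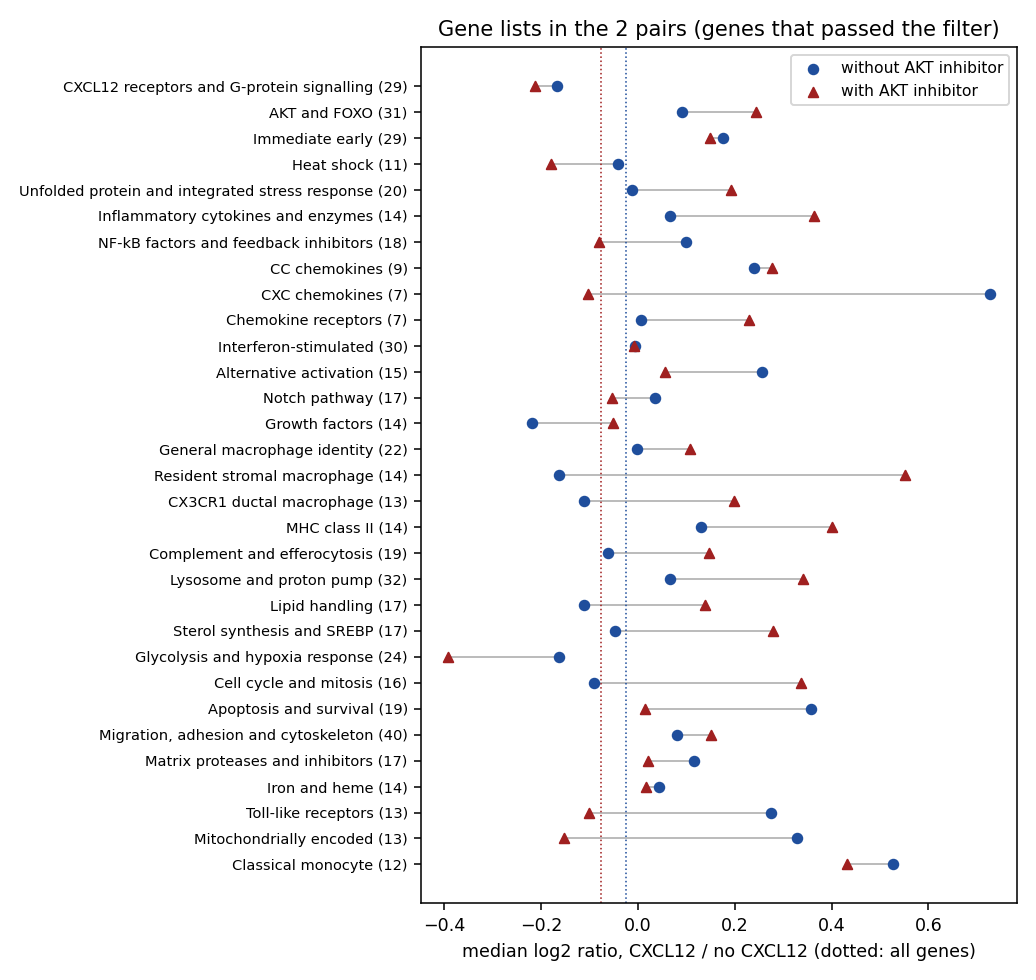
Median log2 ratio with CXCL12 against without for each gene list with at least 7 genes past the filter (number in brackets), without (circles) and with (triangles) the AKT inhibitor; dotted lines give the medians of all genes. CC chemokines, immediate early and monocyte genes lie close in both pairs, whereas CXC chemokines and mitochondrially encoded genes lie apart.

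Among the 8415 genes of at least 10 CPM, the pairs were not alike on the whole. Without the inhibitor 820 genes (9.74%) were at least 2-fold higher and 957 (11.4%) lower with CXCL12, and with it 1320 (15.7%) and 2098 (24.9%). In both pairs 206 were higher (2.45%) and 345 lower (4.1%), together 551 (6.55%), while 565 (6.71%) were 2-fold apart in opposite directions. Across these genes, which are not independent and share the 4 libraries, Pearson's r of the 2 log2 ratios was -0.01 and Spearman's rank correlation 0.01. At a mean of 100 CPM or more r was 0.09 and the rank correlation 0.09 over 2121 genes.

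**Figure D4:**
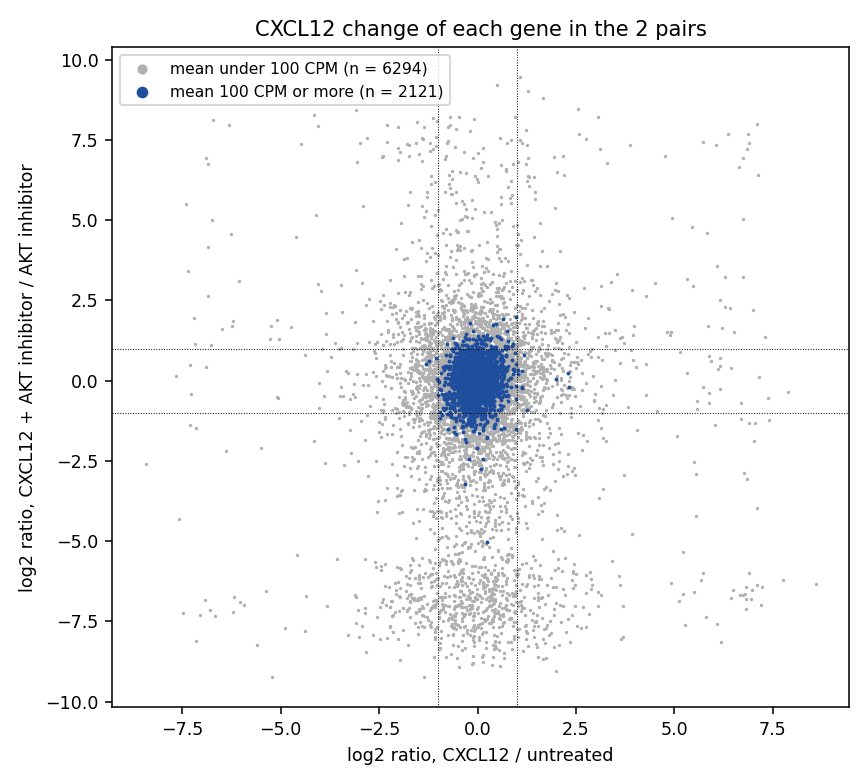
Log2 ratio of each of 8415 genes with CXCL12 against without, without the AKT inhibitor (x) and with it (y); dotted lines mark 2-fold and blue points genes with a mean of 100 CPM or more. The cloud has no slope (r = -0.01), spreads more with the inhibitor, and its far points are genes of low level.

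How often a fold was passed differed by level. Under 30 CPM, 476 of 3313 genes were alike at 2-fold and 481 opposite, and from 30 to 100 CPM 75 and 84 of 2981. From 100 to 300 CPM none of 1498 genes reached 2-fold in both pairs, and at 1.5-fold 48 were alike and 20 opposite. At 300 CPM or more 4 of 623 were alike and none opposite at 1.5-fold. Of the 206 higher and 345 lower genes at 2-fold, 68 and 180 had a library under 1 CPM, against 1069 of all 8415.

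**Figure D5:**
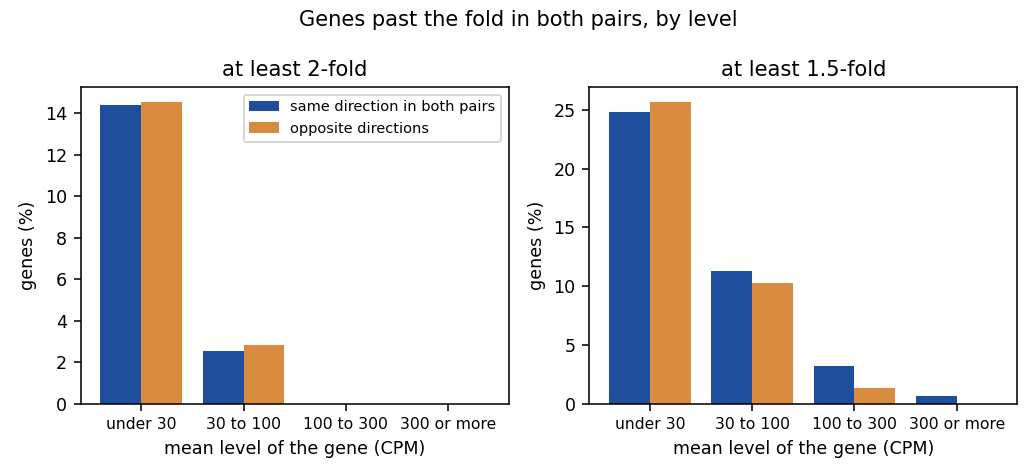
Share of genes (%) that passed the fold in the same direction (blue) and in opposite directions (orange) in both pairs, by mean CPM, at 2-fold (left) and 1.5-fold (right). Paired bars are close under 100 CPM. From 100 CPM on no gene passed 2-fold in both pairs, and at 1.5-fold the blue bars are the higher.

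The genes with the largest alike ratios were of this low kind. Adra2a, an adrenergic receptor gene, was listed at 0 untreated and with the inhibitor and had 11.4 and 14.5 CPM with CXCL12 and with both. Batf2, an AP-1 family gene of macrophages, had 0.0473 and 12.02 CPM, then 0.0698 and 34.6, and Il15ra, a cytokine receptor chain, 1.42 and 22.2 CPM, then 0.0698 and 27.5. Mocs2, of molybdenum cofactor synthesis, had 0.804 and 27.8 CPM, then 1.40 and 50.5. The other 6 higher genes by the same rule, Mppe1, Gpr82, Nfatc4, Pdzrn3, Dalrd3 and Zfp944, had at most 2.37 CPM without CXCL12 and between 10.2 and 37.04 CPM with it.

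Usf1, an E-box binding factor, had 10.97 CPM untreated and 0.0689 with CXCL12, then 19.0 with the inhibitor and 0.0624 with both. Ahsa2, a cochaperone of HSP90, had 21.4 and 0.342 CPM, then 67.05 and 0.125. Aimp1, a scaffold of tRNA synthetases, had 22.1 and 0.964 CPM, then 22.1 and was listed at 0. The others were Tagap1, Plekhh2, Pcdhga1, Foxf1, Zfp408, Wdr41 and Pcp4l1, with 10.07 to 25.2 CPM without CXCL12 and at most 1.14 CPM with it. Tagap1 and Plekhh2 were listed at 0 in both CXCL12 libraries.

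Of the 820 genes higher without inhibitor, 206 were alike, 84 smaller in the same direction, 172 near 0 (within 0.5 on the log2 scale), 63 opposite but under 2-fold and 295 reversed (3.51%). Of the 957 lower ones these numbers were 345, 79, 184, 79 and 270 (3.21%); percentages are of all 8415 genes. The difference was thus lost, that is near 0 with inhibitor, for 356 genes (4.23%), and 1376 (16.4%) were 2-fold apart with the inhibitor alone. At a mean of 100 CPM or more and 1.5-fold, with near 0 set at 0.25, 69 of 2121 were lost (3.25%) and 302 were apart with the inhibitor alone (14.2%).

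Lost differences at high level included more than chemokines. Pde2a, a cyclic nucleotide phosphodiesterase, had 78.8 and 156 CPM, then 273 and 245 (log2 0.98 and -0.16). Lars2, the mitochondrial leucyl-tRNA synthetase, had 637 and 1145 CPM, then 901 and 788. In both cases the inhibitor library already lay above the untreated one. The values of Lars2 had the same order over the libraries as those of the nuclear ribosomal RNA Rn18s given above. Whether ribosomal reads had a part in them was not tested. Plxna1, a semaphorin receptor, had 181 and 89.5 CPM, then 177 and 182 (log2 -1.02 and 0.04), so the library with CXCL12 alone stood below the other 3. Col3a1, a fibroblast collagen, had 168 and 82.9 CPM, then 104 and 105. At lower level, Col1a1 (63.2 and 25.2 CPM, then 24.6 and 69.3) and Col1a2 (58.9 and 25.1 CPM, then 61.6 and 74.5) were lower without the inhibitor as well, but Col1a1 was higher with CXCL12 in the other pair. Of 6 fibroblast markers past the filter, 2 were above 0 without and 4 with inhibitor, against 48.3% and 47.2% of all genes. Without inhibitor 3 were at least 2-fold lower and 1 at least 2-fold higher, where 11.4% and 9.74% of all genes were.

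By the 2-fold rule, Tfeb, the master regulator of lysosome genes, had 0.0473 and 10.5 CPM, then 36.03 and 49.8, and Vps53, of retrograde transport, was listed at 0 untreated and had 23.2, 13.5 and 10.6 CPM in the other 3. Gpat3, Arhgap28 and Acacb had 0.0473 to 0.189 CPM untreated and 10.05 to 24.45 CPM elsewhere. Among lower ones, Tmem109 had 26.8 and 0.0344 CPM, then 17.9 and 19.9, and the homeobox gene Irx3 23.3 and 1.34 CPM, then 16.7 and 15.96. Zfp60, Cxxc5 and Cpne2 had 0.0344 to 1.65 CPM with CXCL12 alone and 7.68 to 35.9 CPM in the rest. The untreated library stood apart for the 5 higher genes and the library with CXCL12 alone for the 5 lower ones.

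For some differences present with the inhibitor alone the combined library stood apart, for others the inhibitor library. Cd180, a Toll-like receptor relative, had 272 and 271 CPM, then 127 and 29.6 (log2 -0.01 and -2.10). Eng, the endothelial receptor endoglin, had 186 and 203 CPM, then 259.5 and 89.6, while the endothelial genes Kdr (243 and 198 CPM, then 366 and 142) and Vwf (179 and 241 CPM, then 326 and 121) were also lowest with both agents. The endothelial markers did not all go this way: of 5 past the filter, 1 was above 0 without and 2 with inhibitor. Of all genes, 48.3% and 47.2% were. Elmo1, which activates RAC1 during engulfment, had 110 and 120.02 CPM, then 172 and 62.6. Rhoa, a GTPase of the cytoskeleton, had 731 and 722 CPM, then 422 and 958, and Pfn1, the actin-binding protein profilin, 96.4 and 111 CPM, then 82.9 and 211. The inhibitor library was the low one for Thoc2, of mRNA export, with 176 and 204.5 CPM, then 75.0 and 191, for Abhd17b, with 150.3 and 139 CPM, then 57.4 and 166, and for the lectin gene Clec2d, with 122 and 122 CPM, then 59.3 and 157. At low level, Hax1 had 33.2 and 31.0 CPM, then 0.14 and 67.2, Jrkl, Svbp and Ticam2 were listed at 0 with the inhibitor, and Ncaph2, Hps4 and Abi3 were listed at 0 with both agents.

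Reversed differences at high level, 1.5-fold in each pair, comprised 9 genes higher (0.424%) and 11 lower (0.519%) with CXCL12 alone, each the other way with inhibitor. Grb2, the adaptor that links receptors to RAS, had 67.2 and 131 CPM, then 189 and 66.4 (log2 0.97 and -1.51). Nlrc5, the regulator of class I genes, had 99.4 and 151 CPM, then 103 and 55.3, and the class I gene H2-Q6, which has close paralogs, 104.5 and 179 CPM, then 258 and 164. Stx3, a vesicle fusion protein, had 209 and 88.7 CPM, then 119.7 and 184 (log2 -1.24 and 0.62), and Cldn5, an endothelial tight junction gene, 165 and 105 CPM, then 152 and 302. At 2-fold and low level the named genes were Adprs, Prdm16, Pym1, Phax and Meox2 (higher, then lower) and Pus3, Yy2, Ccdc15, Dmwd and Plgrkt (lower, then higher), with at most 0.768 CPM in the lower library of each pair. The difference between the pairs could not be tested, because the interaction takes the only residual degree of freedom.

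The common CXCL12 difference of both pairs was tested with limma, allowing for the inhibitor. Of 8415 genes, 1 passed at an adjusted p under 0.05, and it was lower (0.0119%). This was Rps2-ps10, a pseudogene copy of a ribosomal protein gene, at 118 and 139 CPM, then 140.3 and 4.17 (mean log2 difference -2.40, SE 0.52, adjusted p = 0.039), and its log2 ratio without inhibitor was 0.24. It was thus lower in 1 of 2 pairs. Unadjusted p was under 0.05 for 477 genes (5.67%), 160 higher and 317 lower. At a mean of 100 CPM or more none of 2121 passed (lowest adjusted p = 0.137, against 3.42e-05 to 0.944 over all settings tried), with 152 at an unadjusted p under 0.05. For a single gene, turning the signs of the 2 pairs gives 4 arrangements, so that an exact two-sided p cannot go below 0.5.

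Spread among replicates of other macrophages gives a scale for these ratios. In sorted macrophages of the same series, duplicate libraries of a group differed at least 2-fold in 18.6% (CXCR4-positive cells) to 60.7% (LysM-Cre controls) of genes of at least 10 CPM in the higher library. By the same count the CXCL12 pairs differed in 26.3% without and 48.9% with inhibitor. At a mean of 100 CPM or more and 1.5-fold, duplicates differed in 14.5% to 54.7% of genes and the CXCL12 pairs in 9.33% and 28.1%. Those duplicates were sorted and not cultured, so they do not measure the spread between cultures.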

How the data were processed

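RNA-seq of 4 cultured macrophage libraries, 1 per group, was analysed. Partek, STAR 2.7.8a and hg38, a human build, appear in the submitters' processing notes, while the gene symbols are of mouse; the counting step, annotation and use of strand are not given in the sources used here. Libraries were depleted of ribosomal RNA, per the labels' protocols. The authors deposited log2 values, log2(CPM + 0.0001), read as such because 86.4% to 90.2% of values up to 50 reads were whole multiples of 1 step (tolerance 0.05 reads). The rest were fractional, so no count test was run. Depth was the inverse of that step. Of 18909 entries, 91 sharing a symbol were dropped.

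An additive model of CXCL12 and inhibitor on log2(CPM + 0.0993) used limma (version 3.58.1, R 4.3.3) with empirical Bayes moderation and a mean-variance trend. Tests were two-sided and Benjamini-Hochberg adjusted over 8415 genes. A check on simulated data used independent noise without an interaction, so it cannot show that p holds for these libraries. Residual degrees of freedom were 1 and prior ones infinite, so the spread comes from the trend, and p concerns these libraries only. Symbols and lists were chosen with earlier results of these data known. Named at 2-fold were the 10 alike, 5 lost, 5 inhibitor-only and 5 reversed genes with the largest ratios per direction, without predicted genes, ribosomal proteins and pseudogenes; from lists, all CXCL12 signalling genes and up to 4 with the largest mean ratio. Other list members, and the genes of mean 100 CPM or more at 1.5-fold, were named after their values were seen. The deposited coordinates of this table are not of GRCm38, so places come from GENCODE M21 and RefSeq. P4 cells were not analysed here, and a few genes are not reported here.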

Additional observations from a re-analysis of the deposited data

Results flagged for a closer look

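All results here differ in direction between the pairs, and none of these differences was tested, since each pair is 1 library against 1. At 2-fold, 565 genes were higher with CXCL12 in one pair and lower in the other. At a mean of 100 CPM or more and 1.5-fold in each pair there were 20 such genes, of which those below are given. The log2 ratio with inhibitor minus that without was -2.48 for Grb2, -2.16 for Slc35f6, -2.10 for Nfkb2, -1.501 for Nlrc5, -1.47 for Sod2, -1.45 for Zc3h7a, -1.42 for H2-Q6 and -1.20 for Desi2. It was 1.94 for Ago3, 1.92 for Hbb-bs, 1.86 for Stx3, 1.76 for Cdk14, 1.63 for Cldn5, 1.595 for Ube2h, 1.54 for Galnt15, 1.505 for F11r, 1.497 for Nav2, 1.46 for Slc26a2 and 1.34 for Hbp1. Hbb-bs encodes beta globin and Cldn5 an endothelial junction protein; summed endothelial markers were 1730 and 1595 CPM without the inhibitor and 2109 and 1667 CPM with it, and their part in these differences was not tested.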

How the results depend on the processing

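Alike genes numbered 551 and opposite ones 565, and no setting separated them at 2-fold without a limit on level: 502 and 518 with 1 CPM added, 518 and 549 with median-ratio scaling, 504 and 532 with totals free of small noncoding, mitochondrial and pseudogene RNA, and 476 and 479 among genes above 0 in all 4 libraries. A filter at 1 CPM (12795 genes) gave 592 higher, 1166 lower, 2076 inhibitor-only and 1816 reversed genes. No filter (18818) gave 753, 1400, 3246 and 2212, with 3009 lost. At 1.5-fold these counts were 487 higher, 725 lower, 835 lost, 2279 inhibitor-only and 1177 reversed. At a mean of 100 CPM or more they were 0, 0, 11, 138 and 0 at 2-fold and 22, 30, 69, 302 and 20 at 1.5-fold; that limit and the genes above 0 were added after the data had been seen. With limma, 1 lower gene became 0 with the 1 CPM filter, median-ratio scaling, the other total, no trend or the 100 CPM limit, and 2 (Ppp2r3a and Rps2-ps10) with 1 CPM added or among genes above 0. Without a filter 6 higher and 3 lower genes passed: Cxcl2, Gm28437, Gm28661, Il1rn, Kcnq1ot1, Lyz1, Lyz2, Neat1 and Ppp2r3a. No ratio of a named gene that was 2-fold changed sign with another prior, scaling or total; median-ratio scaling moved 525 of 1376 by more than counting error. No paired analysis was possible because the cultures carry no replicate numbers; pairing by inhibitor is in the model. Leaving out a library ends a pair and leaves no degree of freedom, so the pairs are given singly. Depth limits genes near 3 reads, 0.103 to 0.209 CPM.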
